A study of Homo sapiens with 6 samples.

Results

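The microRNA machinery was followed through 10 mRNAs, those of the 4 Argonautes AGO1, AGO2, AGO3 and AGO4, of the nucleases DROSHA and DICER1, of their RNA-binding partners DGCR8 and TARBP2, of the export receptor XPO5 and of the GW182 protein TNRC6A. They were chosen by symbol, and all 10 were found among the 57773 genes of the RPKM table and among the 15451 genes that were tested, whose level averaged 0.5 RPKM or more over the 6 libraries. RPKM is the number of reads on a gene divided by the length of the gene and by the size of the library. The cells were H460, an established human non-small-cell lung cancer line. The control group, siNT, held 3 libraries of cells given ON-TARGETplus Non-targeting siRNA #1. The other group, siHKlincR1, held 3 libraries of cells given an ON-TARGETplus siRNA against HKlincR1 (AC093323.3), a long intergenic non-coding RNA. Sample titles give that siRNA the number 2, and it was read here as siHKlincR1_2. Every culture received 50 nM siRNA with Lipofectamine RNAiMAX for 48 h, so transfection and a loaded siRNA were common to both groups, and untransfected cells were not analysed here. With 1 siRNA in 1 cell line, loss of HKlincR1 and any other effect of that siRNA cannot be told apart. The libraries were made from polyadenylated RNA, which reports these mRNAs and neither the proteins nor the mature microRNAs.

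MicroRNAs begin as hairpins in long nuclear transcripts, which the Microprocessor, the RNase III enzyme Drosha with its partner DGCR8, cuts to release the precursor. Exportin-5, the product of XPO5, carries the precursor to the cytoplasm, where Dicer with TRBP, the product of TARBP2, cuts it to a short duplex. An Argonaute keeps one strand as guide, finds target mRNAs mainly through the seed at the guide's 5′ end, and calls in GW182 proteins, which recruit the deadenylases that shorten the poly(A) tail. An siRNA enters this pathway at Argonaute loading, and its own seed can act on other mRNAs like that of a microRNA.

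The sequences that link the siRNA to these mRNAs are its guide and the seed matches in their 3′ UTRs. The sense strand, the guide worked out as its complement, and the target in HKlincR1 at chr4:6677040-6677058 on the plus strand of GRCh37 are given with the seed (guide bases 2 to 8) or its match in capitals.
siHKlincR1_2 sense strand: gaaguauacucgugugcuu
siHKlincR1_2 guide strand: aAGCACACgaguauacuuc
HKlincR1 target: gaagtatactcGTGTGCTt
The motif searched was GTGTGCT, on the mRNA strand of the 3′ UTR of each gene's canonical transcript (GENCODE v44 on GRCh37). The intervals are those of the 27 bases shown, and the match starts at the base of the 3′ UTR given after each. DROSHA held 1 match, within chr5:31401427-31401453 (minus strand), at base 96 of a 3′ UTR of 938 bases. DGCR8 held 2 on the plus strand, within chr22:20098736-20098762 and chr22:20098787-20098813, at bases 1115 and 1166 of 1764. AGO3 held 1 within chr1:36535832-36535858 (plus strand), at base 14496 of 16755. Each is shown with its neighbouring bases and the match in capitals.
DROSHA: aatgaatgaaGTGTGCTcattgaaata
DGCR8, first: aggcaccaggGTGTGCTcaaaggctgg
DGCR8, second: gcagagtgccGTGTGCTtgtggtgcgc
AGO3: aagaaagaaaGTGTGCTtatttcactc
AGO2 held 2 matches, starting at bases 1230 and 5145 of a 3′ UTR of 11888 bases. Its reads were counted over 4824 bases in all, so part of this 3′ UTR lay outside the gene model behind its RPKM. AGO1, AGO4, DICER1, TARBP2, XPO5 and TNRC6A held none. Thus 4 of the 10 mRNAs held a match, against 14.1% of 10765 tested genes (those whose canonical transcript has an annotated 3′ UTR). A longer 3′ UTR gives more room for a match, and 8 of the 10 had a 3′ UTR longer than the median of 1366 bases over those genes. A match is a description of the letters and not a measured site.

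Worked back from the RPKM values, the libraries held 24980280 to 30521000 reads, of which 89.9% to 91.1% fell on listed genes. HKlincR1 stood at 3.62, 3.47 and 3.83 RPKM in the siNT libraries and at 0.563, 0.628 and 0.390 RPKM in the siHKlincR1 libraries, a drop by 85.5% (log2 fold change -2.59, SE 0.17, adjusted p = 0.00245 by limma, n = 3 per group). The keratins KRT8 and KRT18, markers of epithelial cells, averaged 31.5 ± 0.681 and 82.4 ± 3.27 RPKM (SD) in siNT, whereas the epithelial marker EPCAM was near 0, at 0.0556 ± 0.0359 RPKM. The summed level of the epithelial marker list was 151 to 172 RPKM in siNT and 154 to 170 RPKM in siHKlincR1. Of the blood, endothelial and fibroblast markers, 9 of 10 were matched and 2, the collagen genes COL3A1 and COL1A1, were tested. The T-cell marker CD3E and the fibroblast marker DCN had 0 reads in 5 of the 6 libraries and 1 read in the other. More reads fell on the blood markers PTPRC (at most 17 in a library) and CD14 (10) and on the endothelial marker CDH5 (3). The summed level of the list, nearly all of it COL3A1, was 14.5 to 16.8 RPKM in siNT and 18.0 to 21.8 RPKM in siHKlincR1. COL3A1 averaged 14.3 ± 1.29 and 18.6 ± 2.22 RPKM (adjusted p = 0.210 by limma, 0.0444 in a fit that also held the replicate number as a block). COL1A1 lay on the other side, at 0.998, 1.08 and 1.23 RPKM in siNT and 0.548, 0.419 and 0.773 RPKM in siHKlincR1, without overlap (log2 fold change -0.85, adjusted p = 0.196 by limma). The part of these markers in the results was not tested. Replicate 3 of siHKlincR1 stood apart in that leaving it out moved the genes called lower from 55 to 314 and those called higher from 1 to 204. Without it none of the 10 mRNAs was called, and 1, DROSHA, was lower at an adjusted p under 0.05 by limma alone. By that cutoff, 704 of the 15451 tested genes were lower and 459 higher in the same fit. In bulk RNA, fewer cells expressing a gene and less RNA per cell cannot be told apart.

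In control cells, DROSHA and XPO5 had the most abundant mRNAs of the 10 and AGO3 the least abundant. Ordered by mean RPKM, DROSHA (14.1) was followed by XPO5 (10.9), TNRC6A (7.38), AGO2 (6.09), TARBP2 (5.59), DICER1 (5.04), DGCR8 (4.70), AGO1 (4.21), AGO4 (1.93) and AGO3 (0.902). RPKM corrects for the length over which reads were counted, so this order depends on the gene models. That length was 4090 bases for TARBP2, against 1510 in its GENCODE v44 canonical transcript. For AGO2 it was 4824 bases, against 14595. The median over tested genes was 5.05 RPKM, so most of the machinery sat near the middle of the expressed genes. DROSHA lay at percentile 76.6 of the tested genes, DICER1 at 49.9 and AGO3 at 11.3. The siNT ranges of AGO2 and TARBP2, of TARBP2 and DICER1, of DICER1 and DGCR8, and of DGCR8 and AGO1 overlapped, so the order among these neighbours was within the spread of the libraries. DROSHA was 1.29-fold above XPO5, XPO5 1.48-fold above TNRC6A, TNRC6A 1.21-fold above AGO2, AGO1 2.19-fold above AGO4 and AGO4 2.14-fold above AGO3, and these ranges did not overlap. In siHKlincR1 cells XPO5 ranked first and DROSHA second.

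**Figure D1:**
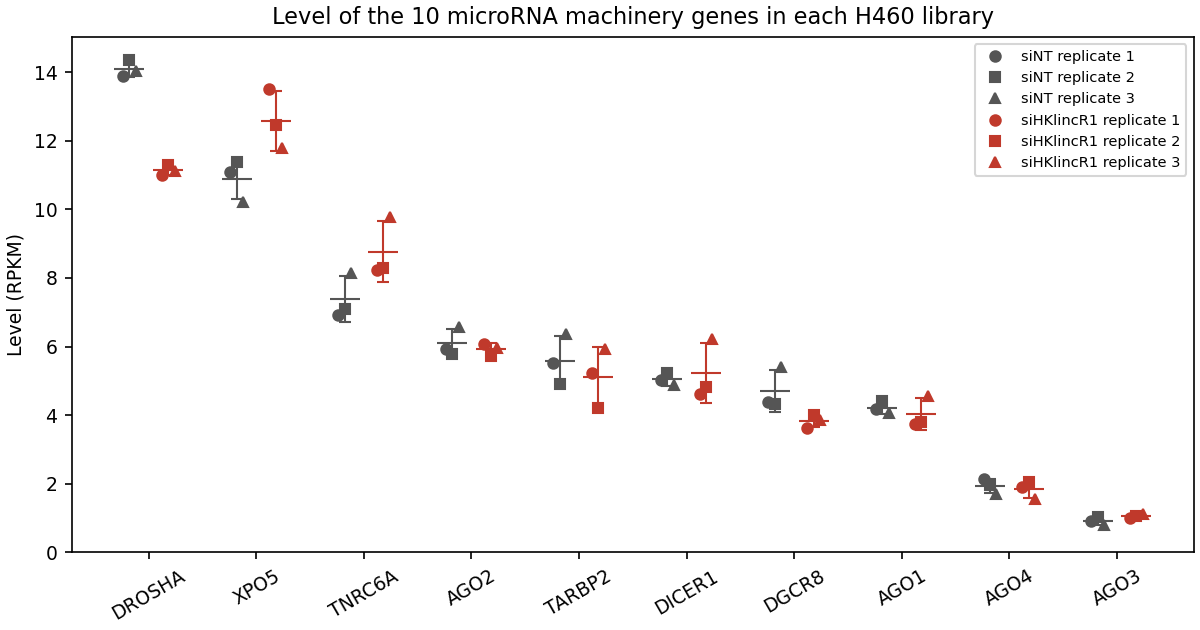
RPKM of the 10 mRNAs (linear axis) in each of the 3 siNT (grey) and 3 siHKlincR1 (red) libraries, as points, with the group means (horizontal lines) and SD (bars). DROSHA and DGCR8 lie lower and XPO5 and TNRC6A higher in all siHKlincR1 libraries than in any siNT library, and the other 6 overlap.

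None of the 10 mRNAs was called after siHKlincR1, where a call needed an adjusted p under 0.05 by limma and a fold change over 1.5. Over all tested genes, 55 were called lower (0.356%) and 1 higher (0.00647%), so that few calls could fall among any 10 genes. With the replicate number kept as a block these counts were 125 and 79, and again none of the 10 was called. With the adjusted p alone, 0 of the 10 passed, against 68 tested genes lower (0.44%) and 2 higher (0.0129%). At an unadjusted p under 0.05, 2 of the 10 were lower (DROSHA and DGCR8) and 2 were higher (XPO5 and TNRC6A), where 9.19% of tested genes were lower and 7.04% higher. The same 4 genes were those whose groups did not overlap, against 11.9% of tested genes without overlap on the lower side and 10.1% on the higher side. The median log2 fold change of the 10 was -0.05, with a median size of 0.17, against 0.00 and 0.14 over all tested genes. With the block, 1 of the 10 (DROSHA) passed the adjusted p alone, against 1.72% of tested genes on the lower side and 1.2% on the higher side.

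**Figure D2:**
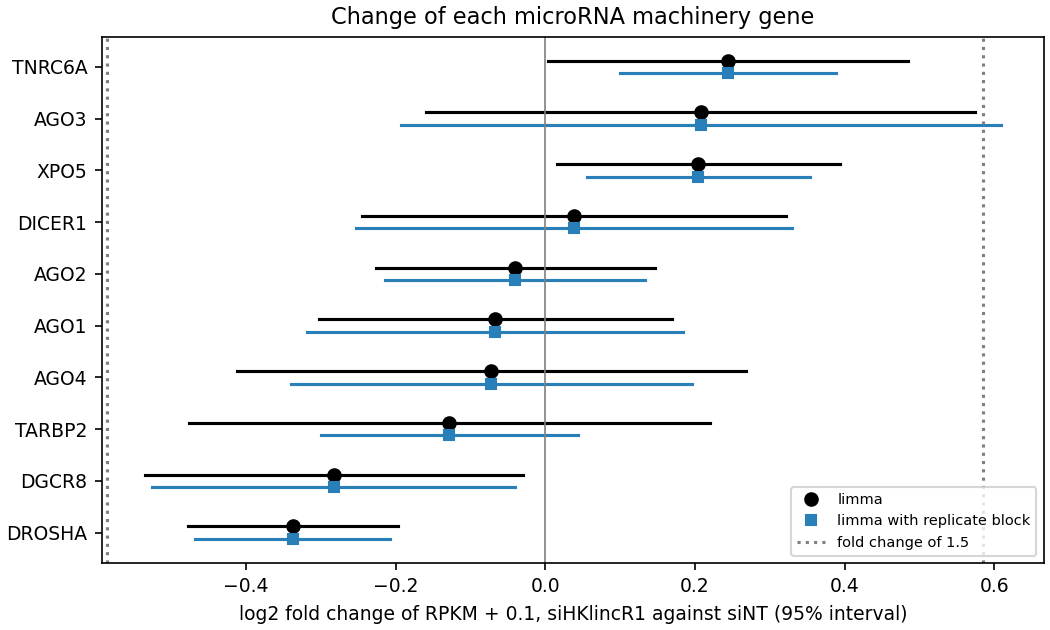
Log2 fold change (siHKlincR1 over siNT) of the 10 mRNAs as points with 95% confidence intervals from limma, without (black) and with (blue) the replicate block, and a fold of 1.5 as dotted lines. Without the block, the interval of DROSHA, -0.48 to -0.20, is the farthest from 0, and the intervals of the 4 Argonautes, DICER1 and TARBP2 include 0.

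DROSHA, the Microprocessor nuclease (ENSG00000113360, chr5:31400601-31532303, minus strand, 36 exons), had the smallest p of the 10. Its mRNA stood at 13.9, 14.4 and 14.1 RPKM in the siNT libraries and at 11.0, 11.3 and 11.1 RPKM in the siHKlincR1 libraries. Both groups were tight and far apart, with means of 14.1 ± 0.243 and 11.1 ± 0.140 RPKM (SD, n = 3), a level 21.0% lower. The log2 fold change was -0.34 (SE 0.06, 95% interval -0.48 to -0.20, adjusted p = 0.0932 by limma), which missed the threshold, and the fold was under 1.5. Same-numbered libraries differed by 20.7%, 21.4% and 20.9%, and the fit with the replicate block gave an adjusted p of 0.0463 by limma. The adjusted p was also under 0.05 with voom on reads worked back (0.0492) and without siHKlincR1 replicate 3 (0.0360), where 144 and 1163 of the 15451 tested genes were. Over the 15 alternative fits the adjusted p of DROSHA lay between 0.0360 and 0.368. Between 2438 and 3410 reads per library lay behind these values.

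DGCR8, the double-stranded RNA-binding partner of Drosha (ENSG00000128191, chr22:20067744-20099400, plus strand, 14 exons), stood at 4.39, 4.31 and 5.40 RPKM in siNT and at 3.64, 4.01 and 3.84 RPKM in siHKlincR1. The groups did not overlap, but siNT replicate 3 stood well above the other siNT libraries. The means were 4.70 ± 0.603 and 3.83 ± 0.188 RPKM (SD, n = 3), with a log2 fold change of -0.28 (SE 0.11, 95% interval -0.54 to -0.03, adjusted p = 0.281 by limma). Without siNT replicate 3 the log2 fold change was -0.18. The ratio of DROSHA to DGCR8 mRNA was 3.16, 3.33 and 2.60 in siNT and 3.03, 2.81 and 2.89 in siHKlincR1. The siHKlincR1 ratios lay inside the siNT range, and the log2 ratio differed by -0.05 between the groups.

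DGCR8 mRNA itself carries microRNA hairpins in its second exon, and the Microprocessor is known to cut hairpins in this mRNA. MIR3618 lies in the 5′ UTR at chr22:20073269-20073356 and MIR1306 in the coding part at chr22:20073581-20073665 (GRCh37, plus strand). Their mature sequences from RefSeq (GRCh38.p14 table) are given with the seed in capitals, to show what the same exon encodes.
hsa-miR-3618: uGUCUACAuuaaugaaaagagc
hsa-miR-1306-5p: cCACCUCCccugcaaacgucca
hsa-miR-1306-3p: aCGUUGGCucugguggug
The seeds differed from each other and from that of the siRNA guide. Both hairpin genes were listed at 0 RPKM in all 6 libraries. They share 88 (MIR3618) and 85 (MIR1306) bases with DGCR8 exons on the same strand. How reads over shared bases were assigned was not examined, so the 0 gives no level of these hairpins or microRNAs. Mature microRNAs lack a poly(A) tail and are not captured in libraries of this kind. DGCR8 also shares 523 exon bases with the antisense gene ENSG00000243762, which reached 0.134 RPKM at most.

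XPO5, the export receptor of the precursor hairpins (ENSG00000124571, chr6:43490072-43543775, minus strand, 32 exons), stood at 11.1, 11.4 and 10.2 RPKM in siNT and at 13.5, 12.5 and 11.8 RPKM in siHKlincR1. Every siHKlincR1 library lay above every siNT library. The means were 10.9 ± 0.601 and 12.6 ± 0.872 RPKM (SD, n = 3), and the log2 fold change was 0.20 (SE 0.08, 95% interval 0.02 to 0.39, adjusted p = 0.292 by limma). Leaving out each library in turn gave log2 fold changes of 0.15 to 0.25.

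DICER1, the nuclease that cuts the exported hairpin (ENSG00000100697, chr14:95552565-95624347, minus strand, 27 exons), stood at 5.02, 5.24 and 4.87 RPKM in siNT and at 4.63, 4.83 and 6.22 RPKM in siHKlincR1. Replicate 3 of siHKlincR1 was the highest of the 6, while the other siHKlincR1 libraries were the lowest. The log2 fold change was 0.04 (95% interval -0.24 to 0.32, adjusted p = 0.888 by limma), and it was -0.09 without siHKlincR1 replicate 3. TARBP2, which encodes the Dicer partner TRBP (ENSG00000139546, chr12:53894705-53900215, plus strand, 9 exons), stood at 5.51, 4.89 and 6.35 RPKM in siNT and at 5.22, 4.22 and 5.94 RPKM in siHKlincR1. The ranges overlapped, although each siHKlincR1 library lay below the siNT library of the same number, by 5.44%, 13.8% and 6.50%. Its log2 fold change was -0.13 (95% interval -0.48 to 0.22, adjusted p = 0.677 by limma). TARBP2 shares 179 exon bases with the antisense gene ENSG00000270175, which reached 0.803 RPKM.

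None of the Argonaute mRNAs passed the test, and the groups of all 4 overlapped. AGO2, the Argonaute best known for cutting fully paired targets (ENSG00000123908, chromosome 8, 141530255 to 141645732, minus strand, 19 exons), stood at 5.94, 5.77 and 6.57 RPKM in siNT and at 6.08, 5.72 and 5.96 RPKM in siHKlincR1. All siHKlincR1 values lay within or just below the siNT range, and the log2 fold change was -0.04 (95% interval -0.23 to 0.15, adjusted p = 0.817 by limma). AGO4, AGO1 and AGO3 are neighbours on the plus strand of chromosome 1, at 36273617 to 36323491, 36335409 to 36396133 and 36396319 to 36538101. AGO1 stood at 4.17, 4.41 and 4.06 RPKM in siNT and at 3.75, 3.79 and 4.56 RPKM in siHKlincR1, where replicate 3 was the highest and the other libraries were the lowest of the 6. Its log2 fold change was -0.07 (95% interval -0.30 to 0.17, adjusted p = 0.753 by limma). AGO4 stood at 2.12, 1.96 and 1.70 RPKM in siNT and at 1.90, 2.06 and 1.55 RPKM in siHKlincR1, with replicate 3 the lowest in each group (log2 fold change -0.07, adjusted p = 0.821 by limma). AGO3 stood at 0.895, 1.02 and 0.793 RPKM in siNT and at 0.996, 1.07 and 1.10 RPKM in siHKlincR1, and siNT replicate 2 lay above siHKlincR1 replicate 1. Its log2 fold change was 0.21 (95% interval -0.16 to 0.57, adjusted p = 0.518 by limma).

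Summed over AGO1 to AGO4, the Argonaute level was 13.1, 13.2 and 13.1 RPKM in siNT and 12.7, 12.6 and 13.2 RPKM in siHKlincR1. AGO2 made up 46.4% ± 3.24 of this sum in siNT and 46.1% ± 1.42 in siHKlincR1 (SD, n = 3). AGO1 made up 32.1% ± 1.31 and 31.4% ± 2.84, and AGO4 14.7% ± 1.61 and 14.3% ± 2.33. AGO3 gave the smallest share, 6.82%, 7.74% and 6.04% in siNT and 7.82%, 8.44% and 8.35% in siHKlincR1, and its groups did not overlap. The shares depend on the gene models: the RPKM values of AGO2 rest on a counted length of 4824 bases, against 14595 bases in its GENCODE v44 canonical transcript, and those of AGO3 on 21248 bases. AGO1, counted over 12886 bases, had more reads than AGO2 in every library. In siNT these were 1491, 1734 and 1308 against 795, 850 and 792, and in siHKlincR1 1376, 1411 and 1758 against 834, 798 and 860. The place of AGO2 above AGO1 therefore rests on the counted length of AGO2.

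**Figure D3:**
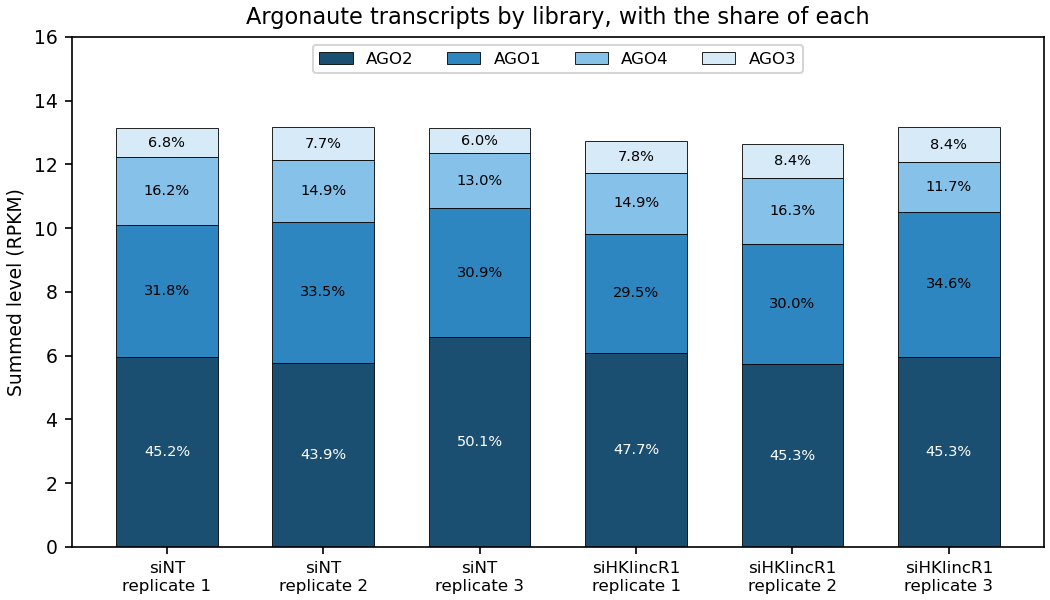
Stacked RPKM of AGO1 to AGO4 in each of the 6 libraries, with the share (%) of each Argonaute in the sum printed on its segment. On the counted lengths behind these RPKM values, AGO2 holds the largest share in all 6, and AGO3 the smallest, between 6.04% and 8.44%.

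TNRC6A, a GW182 scaffold that ties Argonaute to the deadenylases (ENSG00000090905, chr16:24621530-24838953, plus strand, 25 exons), stood at 6.91, 7.09 and 8.14 RPKM in siNT and at 8.22, 8.29 and 9.79 RPKM in siHKlincR1. Replicate 3 was the highest library of each group, and the lowest siHKlincR1 value lay just above the highest siNT value. The means were 7.38 ± 0.665 and 8.77 ± 0.889 RPKM (SD, n = 3), with a log2 fold change of 0.24 (SE 0.10, adjusted p = 0.304 by limma, and 0.0822 with the replicate block). Same-numbered libraries differed by 18.9%, 16.9% and 20.3%. Its paralogs had log2 fold changes of -0.13 (TNRC6B, adjusted p = 0.613 by limma) and 0.01 (TNRC6C, adjusted p = 0.973 by limma). TNRC6A therefore made up 70.0%, 67.9% and 71.6% of the summed GW182 level in siNT and 74.3%, 73.4% and 75.3% in siHKlincR1, without overlap.

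Set beside the seed matches, the 4 mRNAs that held GTGTGCT had log2 fold changes of -0.34 (DROSHA), -0.28 (DGCR8), -0.04 (AGO2) and 0.21 (AGO3). Those of the 6 without it ran from -0.13 (TARBP2) to 0.24 (TNRC6A). Both mRNAs on the lower side without overlap held a match, both on the higher side held none, and the ranges of the groups with and without a match overlapped. With so few mRNAs no test was made, and the part of the matches in these values was not tested.

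**Figure D4:**
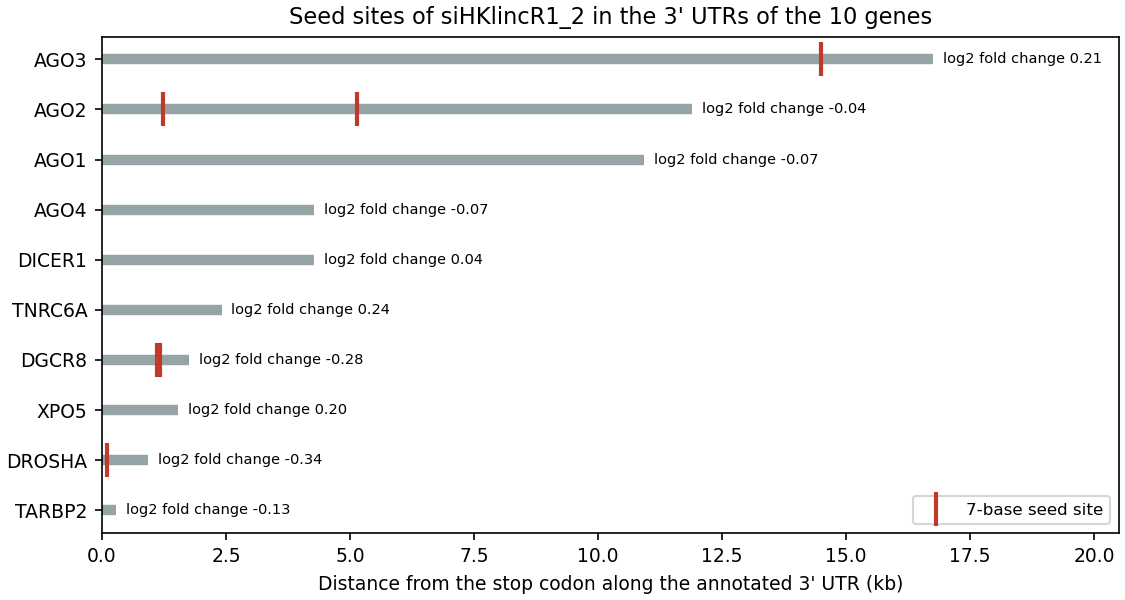
Positions of the match to the siRNA seed along the 3′ UTR of the 10 mRNAs (grey bars; distance from the stop codon, kb; red marks, matches), beside the log2 fold change of each. DROSHA, DGCR8, AGO2 and AGO3 hold matches, and their log2 fold changes lie between -0.34 and 0.21.

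The rest of the pathway was described through 9 lists of 121 genes, of which 120 were matched and 110 tested. None was called, and 1, FMR1, passed the adjusted p alone. With the replicate block, HSPA8 and MIR503HG were called, where 125 of the 15451 tested genes were called lower and 79 higher. In that fit, 3 of the 110 were lower and 2 higher by the adjusted p alone, against 1.72% and 1.2% of all tested genes. At an unadjusted p under 0.05, 13 of the 110 were lower and 6 higher, and groups did not overlap for 13 on the lower and 11 on the higher side, shares near those of all tested genes. FMR1, an RNA-binding translational repressor that associates with Argonaute, stood at 18.5, 19.3 and 18.5 RPKM in siNT and at 13.4, 13.1 and 14.0 RPKM in siHKlincR1. FMR1 fell, with a log2 fold change of -0.47 (SE 0.06, adjusted p = 0.0365 by limma), which is less than a fold of 1.5. Of 10765 tested genes with an annotated 3′ UTR, 14.1% held a match to the siRNA seed. In the same list as FMR1, LIMD1 held 3 (log2 fold change -0.07), PPP6C 1 (-0.29) and CSNK1A1 1 (0.24). The FMR1 3′ UTR of 2281 bases held 1 match, and its part in the lower FMR1 level was not tested. The FMR1 match starts at base 2147, within the 27 bases chrX:147032501-147032527 on the plus strand of GRCh37, shown with the match in capitals.
FMR1: tacaatatttGTGTGCTaaacgtgtat

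The list of Argonaute-bound and P-body factors was broader than its name and included enzymes, such as the prolyl hydroxylase subunits P4HA1 and P4HB. Among its 14 tested genes, 5 were lower (FMR1, ZSWIM8, P4HA1, P4HB and PPP6C) and 1 higher (AJUBA) at an unadjusted p under 0.05. Of all tested genes, 9.19% were lower and 7.04% higher at that level. The median log2 fold change of the 14 was -0.14, and -0.09 without siNT replicate 3. The other gene named by size there beside FMR1, AJUBA, a LIM-domain protein, stood at 6.56 ± 1.04 and 9.21 ± 1.59 RPKM (adjusted p = 0.256 by limma, and 0.0328 with the replicate block). The list of CCR4-NOT and PAN deadenylases held 16 tested genes, among them other subunits and the poly(A)-binding protein genes PABPC1 and PABPC4. Of the 16, 15 had a log2 fold change above 0, with a median of 0.07. At an unadjusted p under 0.05, 4 were higher (CNOT1, CNOT2, CNOT6L and PABPC1), against 7.04% of all tested genes. Over all tested genes, 49.8% had a log2 fold change below 0. CNOT6L, a catalytic subunit, stood at 5.28 ± 0.645 and 6.44 ± 0.478 RPKM (log2 fold change 0.29, adjusted p = 0.289 by limma), and PAN2, another deadenylase, had a log2 fold change of 0.27 (adjusted p = 0.476 by limma). Of the 11 decapping and decay genes tested, 1 was lower at that level, and the median of -0.02 had no stable sign: it was 0.0048 without siNT replicate 3, 0.016 without siHKlincR1 replicate 2 and -0.05 without siHKlincR1 replicate 3. Their named members were the cap-binding repressor EIF4E2, at 9.71 ± 0.831 and 7.69 ± 1.03 RPKM (adjusted p = 0.250 by limma), and DCP1B (log2 fold change 0.25, adjusted p = 0.474 by limma).

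The 15 Microprocessor and nuclear cofactors had a median log2 fold change of -0.03 (-0.07 to -0.03 when single libraries were left out, the lowest without siHKlincR1 replicate 2) and none at an unadjusted p under 0.05. The helicase DHX9 stood at 62.1 ± 5.25 and 50.1 ± 15.9 RPKM (adjusted p = 0.414 by limma), and SRRT, an adaptor of the cap-binding complex, had a log2 fold change of -0.26 (adjusted p = 0.466 by limma). The 7 export and import partners had a median of -0.09 (-0.14 without siHKlincR1 replicate 3 and -0.05 without siHKlincR1 replicate 2) and again none at that level, with log2 fold changes of -0.21 for the nucleoporin NUP153 (adjusted p = 0.339 by limma) and -0.20 for RANGAP1 (adjusted p = 0.375 by limma). Among the 10 tested Dicer partners and precursor regulators, 1 was lower and 1 higher at that level, with a median of 0.06. ZC3H12A, a ribonuclease also known as Regnase-1, stood at 25.4 ± 0.962 and 19.9 ± 1.76 RPKM (log2 fold change -0.36, adjusted p = 0.153 by limma), and the poly(A) polymerase TENT2 at 8.90 ± 0.777 and 10.8 ± 1.08 RPKM (adjusted p = 0.278 by limma).

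All 11 Argonaute loading chaperones had a log2 fold change below 0, against 49.8% of all tested genes, but none passed an unadjusted p of 0.05 and the groups of all 11 overlapped. Their median of -0.13 was -0.02 without siHKlincR1 replicate 2, -0.07 without siNT replicate 3 and -0.31 without siHKlincR1 replicate 3. HSPA8, the constitutive HSP70, stood at 382 ± 142 and 256 ± 103 RPKM (log2 fold change -0.59, adjusted p = 0.397 by limma, and 0.0475 with the replicate block), and its log2 fold change ran from -0.90 to -0.31 when single libraries were left out. HSP90AA1 stood at 604 ± 54.4 and 487 ± 173 RPKM (adjusted p = 0.466 by limma). Of the 24 tested microRNA host transcripts, 18 had a log2 fold change below 0 and 6 were lower at an unadjusted p under 0.05, against 49.8% and 9.19% of all tested genes. Their median was -0.11, and -0.20 without siHKlincR1 replicate 3. MIR31HG stood at 1.73 ± 0.198 and 0.824 ± 0.374 RPKM (log2 fold change -1.05, adjusted p = 0.181 by limma), and CTDSPL, host of miR-26a-1, at 1.67 ± 0.294 and 0.844 ± 0.445 RPKM (adjusted p = 0.246 by limma). With the replicate block, the hosts PANK3 (log2 fold change -0.45, adjusted p = 0.0400) and MIR503HG (0.79, adjusted p = 0.0296) passed the threshold, both chosen for naming after their values were seen. The GW182 paralogs and PIWI clade had 2 of 6 genes tested, TNRC6B and TNRC6C, with a median of -0.06 (-0.11 to -0.02 when single libraries were left out). PIWIL1 and PIWIL3, germline partners of piRNAs, had 0 reads in all 6 libraries, as did the let-7 antagonist LIN28B, and PIWIL2 had at most 21 reads in a library.

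**Figure D5:**
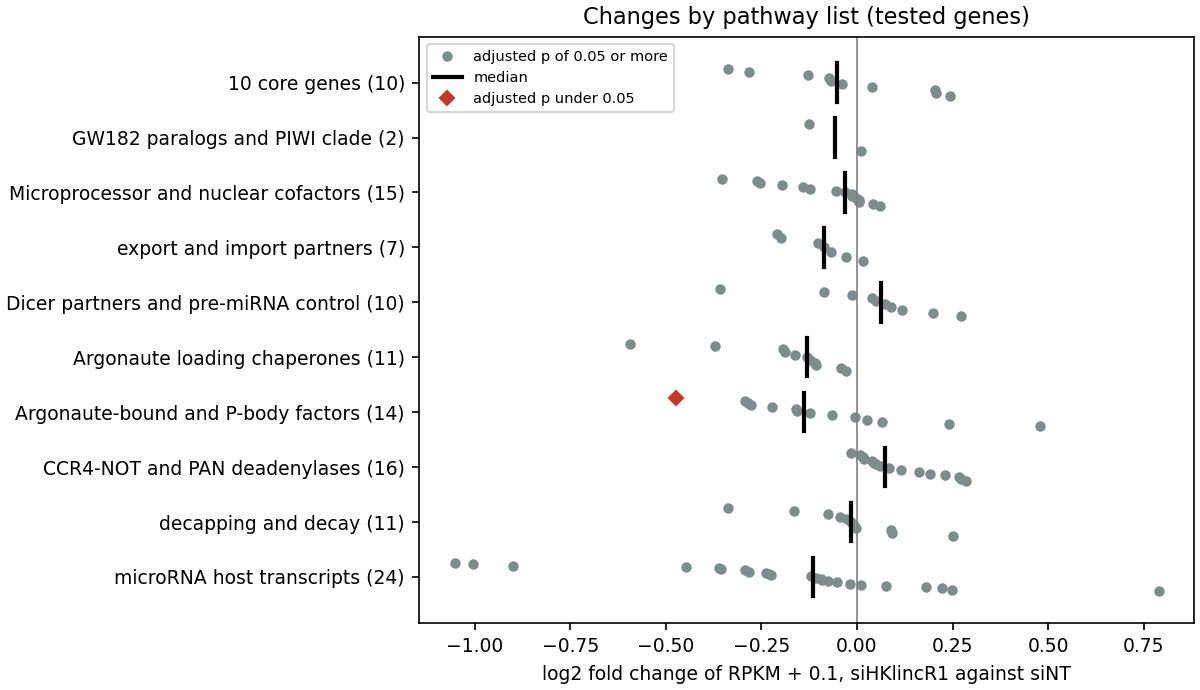
Log2 fold change (siHKlincR1 over siNT) of each tested gene among the 10 mRNAs and the 9 other lists of the pathway, as points, with the median of each list as a line and the number tested in brackets. FMR1, the red diamond, has an adjusted p under 0.05, and the list medians lie between -0.14 and 0.07.

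Over the 6 libraries, the genes whose log2 values followed AGO2 most closely were TBC1D17 (Pearson r = 0.985), EXOSC4 (0.985) and PARD6A (0.983). For DICER1 they were ASXL2 (0.987), CDH10 (0.983) and the pseudogene NPM1P5 (0.974). With only 6 libraries such values are common, and 148 tested genes reached 0.9 with AGO2 and 64 with DICER1. They are given as a description, and the libraries share their groups and depth.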

How the data were processed

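Libraries of polyadenylated RNA from 6 H460 cultures, described as biological replicates, were made with a strand-specific kit and read as paired 75-base reads. The authors deposited RPKM values per Ensembl gene, built on hg19/GRCh37 with featureCounts after CASAVA 1.8.2 (submitters' processing notes), with edgeR named for their own tests. Whether strand was used in counting is not given in the sources used here. Values were tested on log2(RPKM + 0.1), so fold changes of low genes are understated, with limma 3.58.1 in R 4.3.3 (eBayes with trend) over genes averaging 0.5 RPKM or more and Benjamini-Hochberg adjustment. A call needed an adjusted p under 0.05 and a fold over 1.5. Groups followed the siRNA labels. RPKM values gave back whole reads for 100% of the 152380 nonzero values (relative tolerance 1e-06), and voom on these reads was an alternative.

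Same-numbered libraries deviated together from their group means (correlations 0.142, 0.137 and 0.266, against -0.2092 to 0.1134 for different numbers, so that the highest of these was close to the lowest same-numbered value), so the replicate number was treated as pairing the libraries, although the labels give only a shared number. The fit without the block, which does not use this pairing, is the one reported, and block values stand beside it where a call differs. Exact permutation tests of 3 against 3 libraries cannot go below p = 0.10 (two-sided) and are not listed. The members and gene lists were chosen with earlier results of these data known. All 10 members were named, and in each other list the genes called or, failing that, those with the largest change until 2 were named, plus the 3 genes closest to AGO2 and to DICER1 by Pearson correlation. Some further genes of the lists were named after their values were seen. Gene symbols and positions came from GENCODE v44 on GRCh37 (55538 of 57773 identifiers found) and mature microRNAs from RefSeq. Pseudocount, filter, scaling, variance trend, block, voom and each left-out library were varied.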

Additional observations from a re-analysis of the deposited data

How the results depend on the processing

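None of the 10 mRNAs was called in any of the 15 alternative fits. DROSHA, DGCR8 and AGO1 stayed on the lower side and XPO5, TNRC6A and AGO3 on the higher side in every fit that tested them, and a filter at a mean of 2 RPKM left AGO3 and AGO4 untested. The mRNAs past the adjusted p alone numbered 1 with the replicate block and 1 with voom, against 452 and 144 of the 15451 tested genes. When single libraries were left out they numbered 0 to 1. The 1 came without siHKlincR1 replicate 3, where 1163 of the 15451 tested genes passed. The replicate block changed no other call beside those given in the text. Leaving out single libraries turned the direction of AGO2 (log2 fold change -0.077 to 0.015), AGO4 (-0.15 to 0.040), DICER1 (-0.090 to 0.12) and TARBP2 (-0.24 to 0.0025), none of which passed a test. It also turned the difference in the AGO2 share (-1.54 to 1.54 percentage points) and in the log2 ratio of DROSHA to DGCR8 (-0.16 to 0.021).

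Over all tested genes, the 55 called lower became 34 with no filter, 16 without the variance trend, 125 with the replicate block, 87 with voom, and 7 to 314 when single libraries were left out (314 without siHKlincR1 replicate 3). The 1 called higher became 0 with a pseudocount of 0.01, 12 with no filter, 79 with the replicate block, 2 with voom, 2 with the adjusted p alone, and 0 to 204 when single libraries were left out. The cause was not tested. At 3 libraries a group, the differences seen for XPO5, TNRC6A and DGCR8 missed the threshold after adjustment in all fits run.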
